A study of Saccharomyces cerevisiae with 4 samples.

Results

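Mitochondria of budding yeast carry their own ribosome, which translates the few messages encoded in mitochondrial DNA, most of them for membrane subunits of the respiratory chain and ATP synthase. Nearly all of its proteins are encoded in the nucleus, made in the cytosol and imported, and many descend from bacterial ribosomal proteins while others have no bacterial counterpart. Genes named MRPL encode proteins of the large subunit, which forms peptide bonds, and genes named MRPS or RSM encode proteins of the small subunit, which reads the message. Their transcripts are known in Saccharomyces cerevisiae to be regulated together with cellular growth and respiration, partly through mRNA stability.

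The transcripts described here were those of all genes whose current name is MRPL, MRPS or RSM followed by a number. The name rule takes 54 genes of the RefSeq table, and 53 were found on the arrays with 1 probe each, out of 6144 genes tested. Of these, 34 belong to the large subunit and 19 to the small subunit (9 MRPS and 10 RSM genes). RSM28 was not analysed here. All 53 probes were well above background on all 4 arrays, so every member was tested and none was lost to a filter on dim probes. The names leave out mitochondrial ribosomal proteins under other gene names, which are given separately below.

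The arrays compared untreated cultures, at 0 min, with cultures taken 90 min after 17β-estradiol was added to 6 nM. All cultures were of the strain BY4741, a laboratory strain of mating type a derived from S288C, and carried Msn2A6, a form of the stress transcription factor Msn2 that is insensitive to protein kinase A, under the control of estradiol. Cells grew as 50 ml cultures in rich glucose medium (YPD) at 30 °C, and 2 arrays measured each group, from cultures described as biological replicates. Since no culture without estradiol was sampled at 90 min, estradiol, Msn2A6 and further growth cannot be told apart.

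Replicate arrays correlated at r = 0.999 at 0 min and 0.9985 at 90 min over probes, no spot was saturated, and all 4 arrays came from 1 slide. MSN2 itself had log2 signals of -7.27 and -7.35 at 0 min and of -4.73 and -4.95 at 90 min. This was a rise of 2.47 ± 0.09 (SE, adjusted p = 1.34e-06 in limma) that the probe cannot assign to the induced allele or the chromosomal gene. The 0 min signals of MSN2 were low, though well above background on both arrays, so the size of its rise is uncertain. All 6 marker genes of mating type a cells were well above background on every array, at log2 signals of -4.13 to 0.55. The 4 marker genes of mating type alpha cells were also above it, at -8.88 to -3.0. All signals are log2 values relative to the 75th percentile of their array, and a change is the mean at 90 min minus the mean at 0 min on that scale. Since total RNA was measured, fewer cells with a transcript and less of it per cell cannot be told apart.

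Transcripts of the mitochondrial ribosome were mostly and modestly lower at 90 min, to about the same extent in both subunits. Of the 53 members, 33 (62.3%) fell, 6 (11.3%) rose and 14 did not pass the test (limma, adjusted p under 0.05). With no scaling or spike-in scaling of the arrays 0 members rose, against 21% and 11.1% of all genes. With scaling to the 75th percentile, 46.2% of all genes tested fell and 30.3% rose, or 76.5% called in either direction. The median change of the members was -0.26 on the log2 scale, against -0.13 for all genes, and 35 members lay below that median and 18 above it. No member changed 2-fold, where 12.8% of all genes were called with at least that size. The groups did not overlap for 46 members, including all 33 that fell and all 6 that rose, and they did not overlap for 88.4% of all genes. Replicate arrays differed for the median member by 0.05 at 0 min and 0.06 at 90 min.

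**Figure D1:**
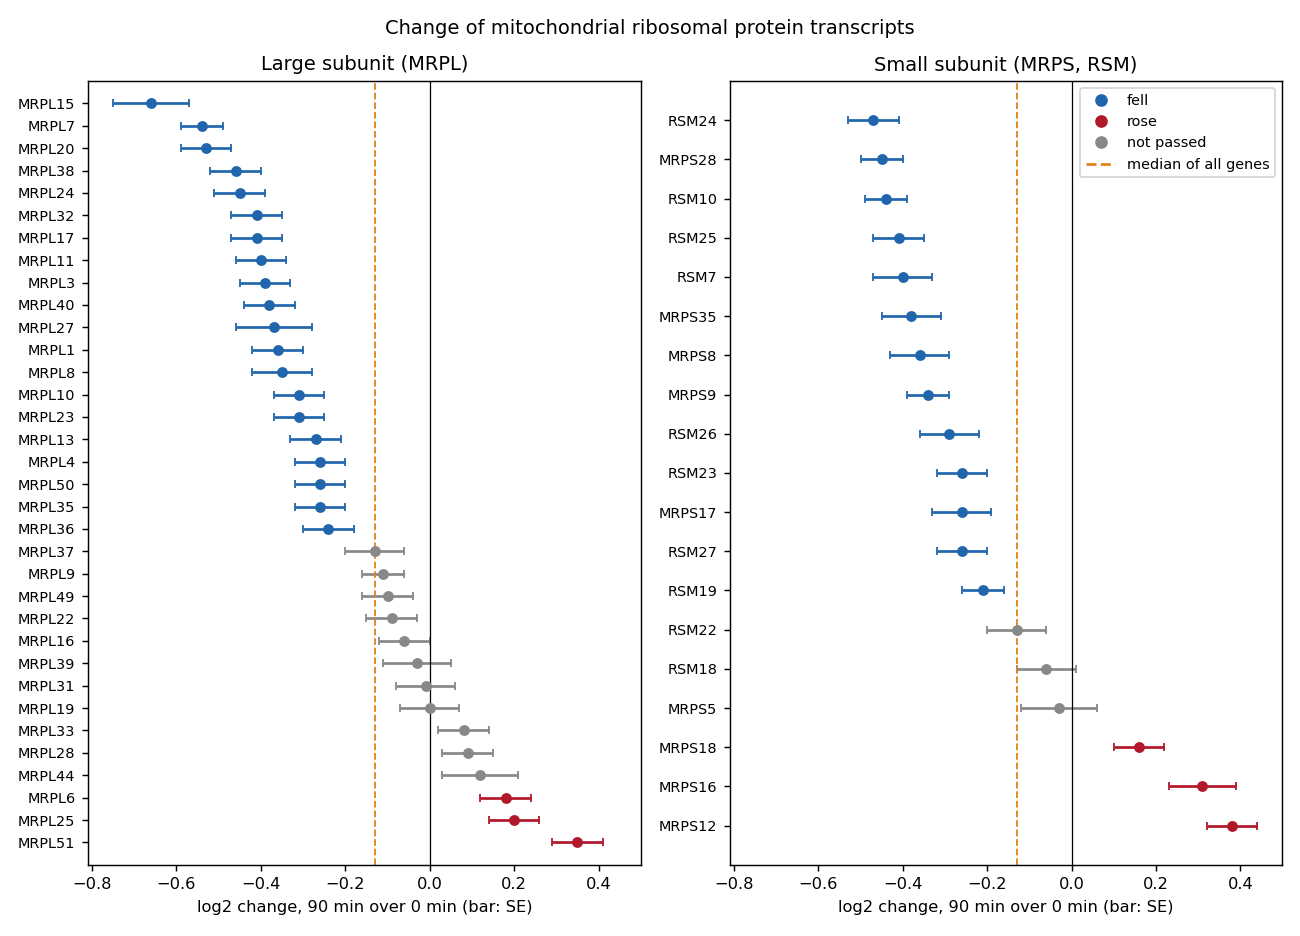
Log2 change at 90 min over 0 min (x axis) for each of the 34 large subunit and 19 small subunit members, with bars for the standard error from limma; blue members fell, red members rose, grey members did not pass, and the dashed line is the median of all genes (-0.13). In both panels most members lie left of that line, with changes from -0.66 to 0.38.

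The large and the small subunit did not separate. In the large subunit 20 of 34 members fell (58.8%) and 3 rose, and in the small subunit 13 of 19 fell (68.4%) and 3 rose. The median change was -0.26 in each, with quartiles at -0.39 and -0.04 in the large and at -0.39 and -0.10 in the small subunit. The difference of these medians stayed between -0.028 and 0.04 under all settings tried, and no test of it was made because the members were chosen with results known. On single arrays the median member of the large subunit lay 0.11 and 0.13 above its own mean over the 4 arrays at 0 min, and at -0.10 and -0.13 at 90 min. For the small subunit these values were 0.10 and 0.16 at 0 min and -0.11 and -0.16 at 90 min. The median gene of the whole array went from 0.06 on both 0 min arrays to -0.05 and -0.07.

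**Figure D2:**
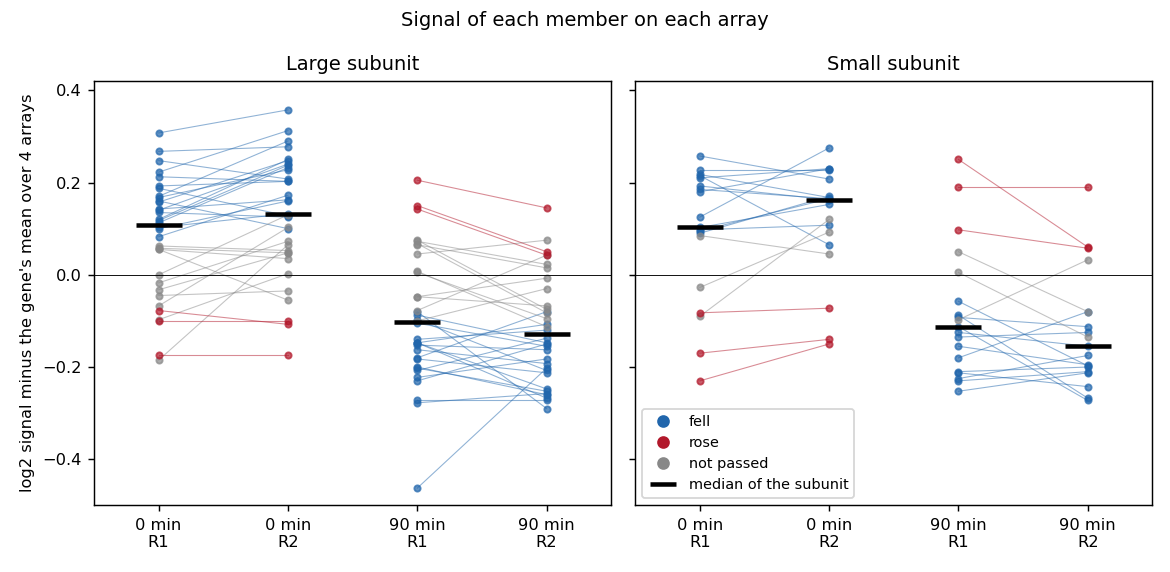
Log2 signal of each member minus that member's mean over the 4 arrays (y axis), by array, with lines joining the replicate arrays of a group, colours as in the plot of changes and black bars for the median of the subunit. The subunit medians sit at 0.10 to 0.16 on the 0 min arrays and at -0.10 to -0.16 on the 90 min arrays.

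Among large subunit proteins the deepest fall was that of MRPL15, a protein with no bacterial counterpart (uniform name mL57). Its log2 signals were -0.74 and -0.69 at 0 min and -1.51 and -1.25 at 90 min. Both 90 min arrays lay below both 0 min arrays, but they differed from each other by 0.26, the widest replicate gap of any member. The fall was -0.66 ± 0.09 (SE), or 1.58-fold (adjusted p = 0.000627), and it was -0.53 without replicate 1 at 90 min and -0.79 without replicate 2.

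MRPL7 is the counterpart of bacterial protein uL5, which sits in the central protuberance, the crown of the large subunit that faces the small one. It stood at -0.52 and -0.51 at 0 min and at -1.06 on both 90 min arrays. The replicates were nearly identical, and the change of -0.54 ± 0.05 had the lowest adjusted p of the large subunit members (0.000136 in limma). MRPL20, which has no bacterial counterpart, went from 0.48 and 0.57 to -0.02 and -0.00, a fall of 0.53 on the log2 scale (1.45-fold, adjusted p = 0.000238). Here too the groups were far apart relative to their replicates.

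MRPL38, the counterpart of bacterial uL14 at the interface between the subunits, had log2 signals of -0.62 and -0.50 at 0 min and of -0.99 and -1.05 at 90 min (change -0.46 ± 0.06, adjusted p = 0.000709). MRPL24, the counterpart of bL28, went from -2.07 and -2.11 to -2.52 and -2.57 (change -0.45 ± 0.06). MRPL17, a mitochondria-specific protein of the central protuberance, went from -0.87 and -0.88 to -1.23 and -1.35 (change -0.41 ± 0.06). In each of these the 0 min arrays were both above the 90 min arrays. The other 14 large subunit members that fell had changes between -0.41 and -0.24. They include MRPL32 (-0.41 ± 0.06), whose processing in mitochondria by the m-AAA protease is tied to ribosome assembly in yeast, MRPL3 (-0.39 ± 0.06), a ribonuclease III-like protein near the tunnel exit, and MRPL36 (-0.24 ± 0.06), the smallest fall among them.

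Among the large subunit members, 3 passed upward. MRPL51, a mitochondria-specific protein, had log2 signals of 0.07 on both 0 min arrays and of 0.45 and 0.39 at 90 min. The change was 0.35 ± 0.06, or 1.27-fold (adjusted p = 0.00133), and the groups did not overlap. MRPL25, known as AFO1 because cells that lack it live longer as mother cells, was at -3.53 on both 0 min arrays and at -3.28 and -3.38 at 90 min (change 0.20 ± 0.06, adjusted p = 0.0231). MRPL6, the counterpart of bacterial uL6, went from -1.95 and -1.98 to -1.73 and -1.83 (change 0.18 ± 0.06, adjusted p = 0.0311). The rises of MRPL25 and MRPL6 were small and close to the threshold. Without replicate 1 at 0 min their adjusted p was 0.084 and 0.0797, without replicate 2 at 0 min 0.0847 and 0.127, and without replicate 1 at 90 min 0.115 and 0.15.

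The 11 large subunit members that did not pass had changes from -0.13 (MRPL37) to 0.12 (MRPL44). Nearest to 0 were MRPL19, the counterpart of uL11 at the base of the stalk where translation factors bind, at 0.00 ± 0.07, MRPL31 at -0.01 ± 0.07 and MRPL39, the counterpart of bL33, at -0.03 ± 0.08. MRPL19 stood at -1.44 and -1.55 at 0 min and at -1.42 and -1.57 at 90 min. Its replicates differed more from each other than its groups did.

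Among the small subunit members the deepest fall was that of RSM24 (uniform name mS35), a protein without a bacterial counterpart. Its log2 signals were -1.42 and -1.47 at 0 min and -1.93 and -1.89 at 90 min, a change of -0.47 ± 0.06 or 1.38-fold (adjusted p = 0.00036). MRPS28 is the counterpart of bacterial uS15, an rRNA-binding protein of the platform. It went from -1.31 on both 0 min arrays to -1.75 and -1.78 at 90 min (change -0.45 ± 0.05). Its adjusted p in limma, 0.000322, was the lowest of the small subunit members. RSM10, the counterpart of uS10 in the head of the subunit, went from -0.93 and -0.91 to -1.37 and -1.35 (change -0.44 ± 0.05). The replicates of these members agreed within 0.06 at each time.

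RSM25, a mitochondria-specific protein, had log2 signals of -0.15 and -0.10 at 0 min and of -0.54 and -0.53 at 90 min (change -0.41 ± 0.06). RSM7, the counterpart of uS7, which organises the head, went from 1.93 and 2.08 to 1.58 and 1.63 (change -0.40 ± 0.07). MRPS35, also mitochondria-specific, went from -0.67 and -0.72 to -1.0 and -1.16 (change -0.38 ± 0.07, adjusted p = 0.0028). All had groups that did not overlap. The other 7 small subunit members that fell had changes between -0.36 and -0.21, among them RSM23 (-0.26 ± 0.06), a GTP-binding protein related to human DAP3, and RSM19 (-0.21 ± 0.05), the counterpart of uS19.

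The rises among the small subunit members were those of MRPS12, MRPS16 and MRPS18. MRPS12 is the counterpart of bacterial uS12, which lines the decoding centre, and its log2 signals were 1.54 and 1.62 at 0 min and 1.96 on both 90 min arrays. Its change of 0.38 ± 0.06, or 1.3-fold (adjusted p = 0.0011), was the largest rise among the 53 members. MRPS16, the counterpart of bS16, went from 0.05 and 0.08 to 0.47 and 0.28 (change 0.31 ± 0.08, adjusted p = 0.00945). Both 90 min arrays were above both 0 min arrays, but the 90 min replicates differed by about 0.2, and without replicate 1 at 0 min the adjusted p was 0.0513. MRPS18, the counterpart of uS11 on the platform, went from -1.05 and -1.04 to -0.87 and -0.91 (change 0.16 ± 0.06, adjusted p = 0.038). That call was lost on leaving out any 1 of the 4 arrays, with adjusted p from 0.0649 to 0.143. MRPS5, the counterpart of uS5, RSM18, of bS18, and RSM22, a methyltransferase-like protein that acts in assembly of the subunit, did not pass, at changes of -0.03 ± 0.09, -0.06 ± 0.07 and -0.13 ± 0.07.

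The count of rises depended on scale and on single arrays. In place of 6 rises there were 2 without replicate 1 at 0 min, 4 without replicate 2 at 0 min, 3 without replicate 1 at 90 min and 5 without replicate 2 at 90 min, while falls numbered 29 to 33. MRPL51 and MRPS12 were called in each of these fits, and MRPL44 was called only without replicate 2 at 0 min. With no scaling between arrays 0 members rose and 41 fell, where 21% of all genes rose and 57.5% fell. With scaling on spike-in probes 0 members rose and 44 fell, where 11.1% of all genes rose and 62.7% fell. Those scalings put the median gene at -0.32 and -0.58. In both settings all genes shift alike, so the order of the members is the same.

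**Figure D3:**
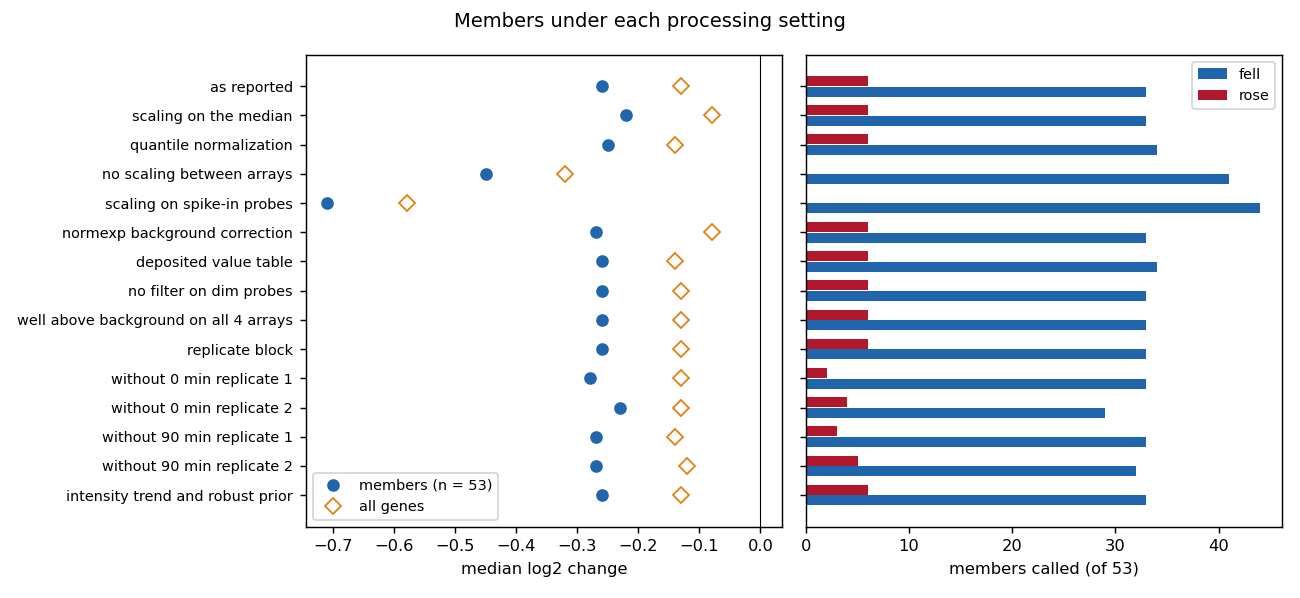
Median log2 change of the 53 members (filled circles) and of all genes (open diamonds) on the left, and the number of members that fell (blue) and rose (red) on the right, under each processing setting (y axis). The members' median lies below that of all genes in every setting drawn, from -0.22 to -0.71. No member is called risen with no scaling or with spike-in scaling, where 21% and 11.1% of all genes are.

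Sorted by descent, members with and without a bacterial counterpart had similar changes. The RefSeq table gives 52 members a name in the uniform ribosomal protein nomenclature, in which the first letter u or b marks a counterpart in bacteria and m a protein particular to mitochondria. Of 33 members with a bacterial counterpart, 20 fell (60.6%) and 4 rose, at a median of -0.26, against 46.2% and 30.3% of all genes. Of 19 mitochondria-specific members, 13 fell (68.4%) and 2 rose, with a median of -0.27. By subunit, all 6 mitochondria-specific members of the small subunit fell, with changes from -0.47 to -0.26, and 7 of 13 in the large subunit did.

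A position in the ribosome was assigned to 24 of the 53 members, which leaves out the 6 mitochondria-specific members of the small subunit, all of them fallen. This grouping was drawn up after the values were seen, so it is a description, and its groups hold 2 to 8 genes, where 46.2% of all genes fell and 30.3% rose. In the central protuberance 4 of 5 members fell, MRPL7, MRPL17, MRPL35 and MRPL36, while MRPL28 was at 0.09 ± 0.06. Around the tunnel exit, where the nascent chain leaves towards the inner membrane, 4 of 5 fell, MRPL3, MRPL4, MRPL13 and MRPL40, and MRPL22, which lines the tunnel, was at -0.09 ± 0.06. At the stalk and its base 1 of 2 fell, MRPL11, the counterpart of uL10, by 0.40 on the log2 scale, and MRPL19 was at 0.00 ± 0.07. In the head of the small subunit all 4 members, RSM7, RSM10, MRPS9 and RSM19, fell, with a median of -0.37. In the body and platform the counts were 3 fallen and 3 risen of 8, at a median of -0.04. All 3 rises among the small subunit members were there. The 13 small subunit proteins under other gene names were not placed. Of these, 2 rose, SWS2 and EHD3, and 7 fell, so the contrast of head and body covers the placed members only.

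Mitochondrial ribosomal proteins under other gene names gave values that the name rule did not use. Of 11 in the large subunit, there were 5 falls and 3 rises at a median of -0.16, and of 13 in the small subunit, 7 falls and 2 rises at the same median. Over both sets of names, 45 of 77 (58.4%) fell and 11 (14.3%) rose, at a median of -0.24, beside 46.2% and 30.3% of all genes. MNP1, the counterpart of the stalk protein bL12, went from 2.04 and 2.06 to 1.5 and 1.59 (change -0.51 ± 0.06, adjusted p = 0.00028). NAM9, the counterpart of uS4, fell by 0.52, and MRP13, a mitochondria-specific protein, fell by 0.45. MRP49 (0.43 ± 0.06) and EHD3 (0.46 ± 0.06), a protein related to hydroxyisobutyryl-CoA hydrolases, rose, though with spike-in scaling neither was called and the change of MRP49 was -0.03.

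IMG1, the counterpart of bacterial bL19 and a gene needed for the integrity of mitochondrial DNA, stood apart from the rest. Its log2 signals were 1.81 and 1.92 at 0 min and 3.84 and 3.95 at 90 min. The replicates lay close together and the change was 2.04 ± 0.07, or 4.11-fold (adjusted p = 1.18e-06). It was the 1 mitochondrial ribosomal protein gene of 77 that changed at least 2-fold, and its change was 1.58 to 2.09 over the settings tried.

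Other genes of mitochondrial gene expression were taken by list, and their counts stand beside 46.2% fallen and 30.3% risen at a median of -0.13 among all genes. Of 10 translation factors, 3 fell and 3 rose, at a median of 0.04. TUF1, the mitochondrial elongation factor Tu, went from 2.02 and 1.99 to 2.45 and 2.35 (change 0.40 ± 0.06), and AIM23, the initiation factor 3 of mitochondria, rose by 0.38 ± 0.06, as did MTQ1, which methylates the release factor, by 0.48 ± 0.07. With spike-in scaling TUF1 was at -0.05 and AIM23 at -0.07, and none of the 3 was called, and with no scaling the calls of TUF1 and AIM23 were lost. Of 11 genes for assembly and membrane attachment of the ribosome, 4 fell and 2 rose, at a median of -0.03. MTG2, a GTPase of large subunit assembly, rose (0.59 ± 0.06, not called with spike-in scaling), and the RNA helicase gene MRH4 (-0.51 ± 0.06) and MAM33 (-0.48 ± 0.06) fell. Of 14 mitochondrial tRNA synthetases, 6 fell and 2 rose, at a median of -0.10. MSK1, for lysine, was 2.3-fold higher, and SLM5, for asparagine, and MSF1, for phenylalanine, were 1.71-fold and 1.47-fold lower.

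Of 17 translational activators, which bring single mitochondrial messages to the ribosome, 8 (47.1%) fell and 4 (23.5%) rose, at a median of -0.09, which is near the shares of all genes. Among the activators of the COX3 message, PET494 rose by 1.17 ± 0.06 and PET122 fell by 0.86. CBS2, an activator of the COB message, rose by 0.79 ± 0.06. None of the 4 genes for mitochondrial transcription and DNA maintenance (RPO41, MTF1, ABF2 and MIP1) passed in limma, also at an unadjusted p under 0.05, with changes from -0.05 to 0.11. Of 15 probed frames of the mitochondrial genome, 3 (20%) rose and 1 (6.67%) fell, beside 30.3% and 46.2% of all genes, at a median of 0.13. Replicates of some frames lay further apart than that, such as ATP8 at -3.60 and -4.54 at 0 min and at -3.29 and -4.22 at 90 min. Those of others lay close, such as COB at 0.51 and 0.47 at 0 min and at 0.62 and 0.55 at 90 min. COX2, a subunit of cytochrome oxidase made on this ribosome, rose by 0.40 ± 0.07, and the frames Q0182 (0.55 ± 0.09) and Q0010 (-0.51 ± 0.17) passed. The signal of Q0010 was very low, at -8.15 and -8.06 at 0 min and at -8.90 and -8.33 at 90 min, so its change is uncertain. With spike-in scaling COX2 was at -0.05 and Q0182 was not called, with no scaling COX2 was not called, and Q0010 was not called after normexp background correction. VAR1, the ribosomal protein encoded in the organelle, had log2 signals of -6.31 and -6.82 at 0 min and of -6.04 and -6.85 at 90 min, with groups that overlapped.

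Of 6 RNA-binding and transcription factors known for mitochondrial or respiratory genes, 3 rose and 1 fell, at a median of 0.36. Among all genes 30.3% rose and 46.2% fell, and a list of 6 is small for such a comparison. HAP5 and HAP2, subunits of the CCAAT-binding complex, rose by 1.11 ± 0.06 and 0.78 ± 0.06, and HAP1, the haem-dependent activator, by 0.82 ± 0.06. The calls of HAP1, HAP2 and CBS2 were lost with spike-in scaling. HAP4, the activating subunit of the same complex, was at -0.06 ± 0.06 and HAP3 fell by 0.20. PUF3, whose product binds messages of mitochondrial ribosomal proteins and promotes their decay on glucose, had log2 signals of -5.43 and -5.62 at 0 min and of -5.63 and -6.21 at 90 min. Its signal was low, and its change of -0.40 ± 0.18 did not pass (adjusted p = 0.082).

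Nuclear subunits of the complexes that the mitochondrial ribosome supplies were measured beside them. Of 29 nuclear subunits of complexes III and IV and ATP synthase, 15 (51.7%) fell and 6 (20.7%) rose, at a median of -0.19, beside 46.2% and 30.3% of all genes. COX5A, COX4 and CYT1 fell 2.23-fold, 1.73-fold and 1.57-fold.

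Set beside the cytosolic ribosome, the mitochondrial one had members on both sides. Of 131 cytosolic ribosomal protein genes, 117 (89.3%) fell and 0 rose (limma, adjusted p under 0.05, and 0 with an unadjusted p under 0.05). Their changes ran from -0.86 to 0.08, with -0.36 as the median, and among all genes 46.2% fell and 30.3% rose. RPL22B fell 1.81-fold and RPS25B 1.66-fold. Many of these genes are nearly identical pairs, so their single signals are uncertain. The cytosolic large and small subunits had medians of -0.37 and -0.36. The difference between the cytosolic and mitochondrial lists was not tested.

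**Figure D4:**
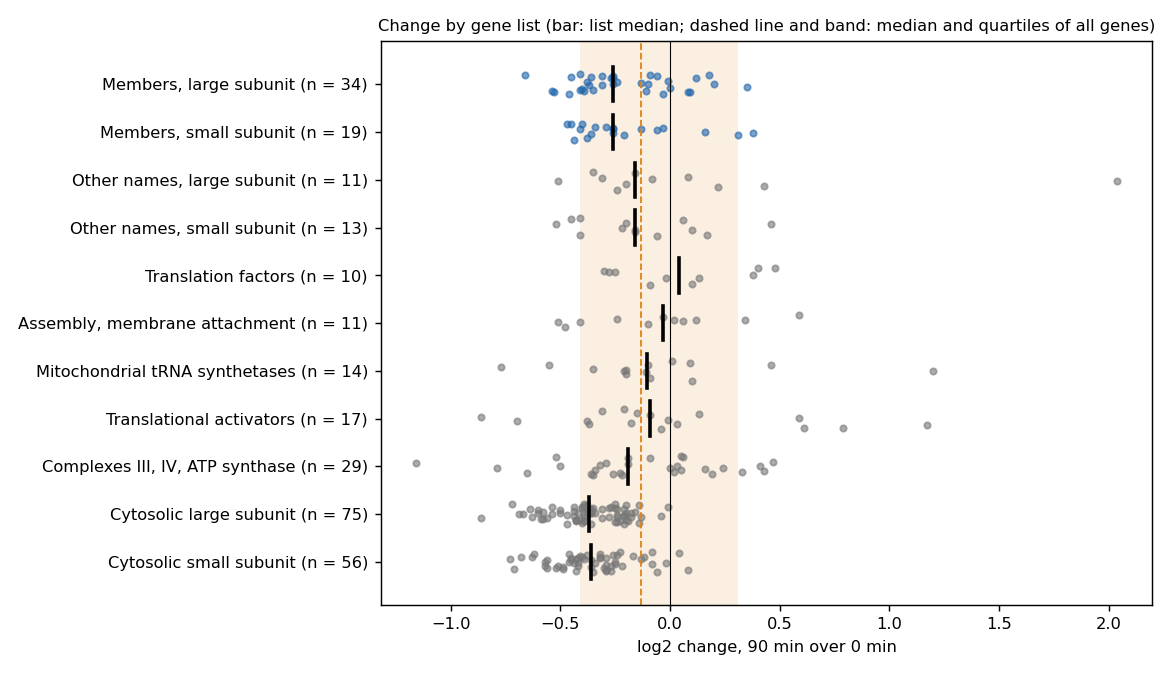
Log2 change of each gene (points, x axis) by gene list, with black bars for list medians, and the dashed line and shaded band for the median (-0.13) and the quartiles (-0.41 and 0.31) of all genes. The members of both subunits have medians of -0.26, the cytosolic subunits lie lower, and IMG1 is the single point at 2.04.

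Members were also set beside their neighbours on the chromosome. By gene order in the RefSeq table, 29 members have a divergently transcribed upstream neighbour, and 28 of these neighbours were tested. Among members that fell, 10 of these neighbours fell, 3 rose and 6 did not pass, and among members that did not pass, 3 fell, 2 rose and 1 did not pass. Among all genes 46.2% fell and 30.3% rose. The members with the largest opposed pairs were MRPL15, whose neighbour ATG39, an autophagy receptor gene, rose 4.7-fold, and RSM7, whose neighbour YJR115W rose 3.52-fold. The 3 risen members with a divergent neighbour, MRPS16, MRPS18 and MRPL6, each had one that fell. These were RRP12 (-1.01 ± 0.06) and IMP3 (-0.45 ± 0.07), both of cytosolic ribosome production, and the kinase gene MCK1 (-0.36 ± 0.07). The reading frame YPR099C, which overlaps MRPL51, was at 0.01 ± 0.07. Another 18 members have an upstream neighbour on the same strand, among them the risen members MRPS12 and MRPL25. MRPS12 and its neighbour RSM19, also a small subunit gene, moved in opposite directions. MRPL25 moved with its neighbour PEX8, which rose by 0.47 ± 0.05.

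**Figure D5:**
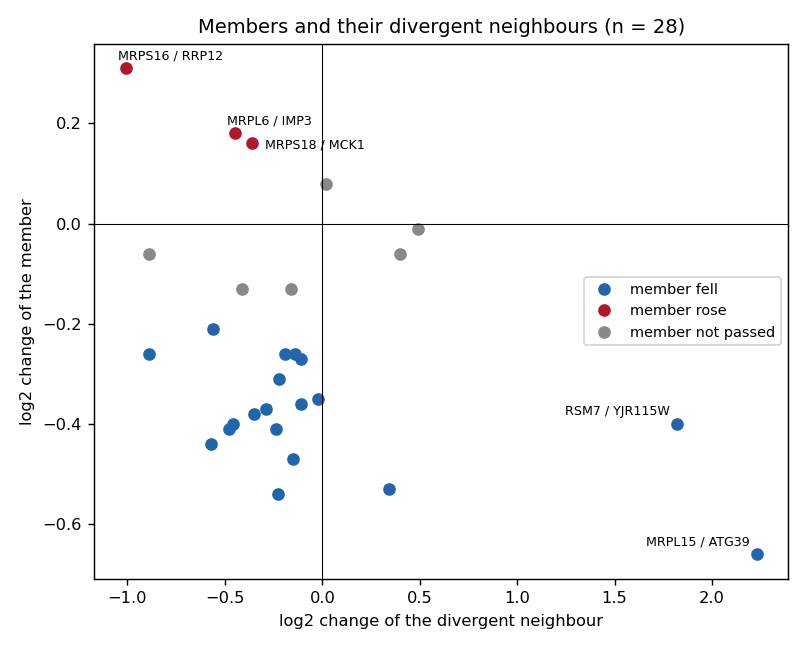
Log2 change of each member (y axis) against that of its divergent upstream neighbour (x axis) for the 28 pairs in which both were tested, coloured by the call of the member. Most pairs lie at the lower left, and MRPL15 with ATG39 and RSM7 with YJR115W lie far to the right.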

How the data were processed

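Intensity in arbitrary units was read from the deposited scanner files, whose headers name Agilent Feature Extraction 10.7.3.1. The processed intensity has, per the file headers, local background and spatial trend removed. The authors' deposited value table holds log2 values, and served as an alternative. The submitters' processing notes name limma for them, without the steps. Each array held 6256 yeast probes with 2 spots each. From each log2 processed signal the 75th percentile of that array's yeast spots was subtracted, and spots of a probe were averaged without outlier spots (3 to 10 per array). Probes well above background on both arrays of a group were tested (6175). The median signal per array was 2969 to 3697 over a background of 20.5 to 21. Precision is limited by having 2 arrays in each group.

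The files name probes by locus tag, so the name rule was applied to RefSeq symbols matched by locus tag (5748 probes) or accession (17). The array design was built on sacCer2 and the gene table is of R64, so gene names and order are given without positions. Where a gene had several probes, the brightest stood for it. For the comparison of 90 min with 0 min, lmFit and eBayes of limma 3.58.1 ran in R 4.3.3 on all tested probes. P-values are two-sided, were adjusted over those probes by Benjamini-Hochberg and were held to 0.05, with 4.46 prior beside 2 residual degrees of freedom. Each p-value weighs the difference between the groups against the spread between replicate arrays, which eBayes moderates with that of all tested probes. The fit was tested on simulated data. The members and lists were chosen with earlier results of these data known, so lists of the mitochondrial and cytosolic ribosome and its partners are given by counts and medians beside those of all genes. Named members were, per subunit, the 6 largest falls, up to 6 rises and the 3 uncalled ones nearest 0, and per other list up to 3 called genes with the largest change; others were picked after their values were seen. A planned count of promoter motifs was not run, since no promoter sequence was used here. Figures used Python 3.11.15, pandas 2.3.3 and matplotlib 3.10.9.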

Additional observations from a re-analysis of the deposited data

How the results depend on the processing

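The falls of both subunits and the medians kept their direction under every setting tried. The counts of falls stayed within 1.5 times, except when a log2 change of at least 0.5 was also asked for. That left 3 falls in the large and 0 in the small subunit and 0 rises in each, and 19.4% of all genes fallen and 18% risen. Rises numbered 3 in each subunit, where 30.3% of all genes rose. They were 0 in each with no scaling or spike-in scaling, where 21% and 11.1% of all genes rose. At adjusted p under 0.01 in limma there was 1 rise in the large subunit, where 26.2% of all genes rose. Leaving out single arrays gave 1 to 3 rises and 19 to 20 falls in the large subunit and 1 to 2 rises and 10 to 13 falls in the small subunit. It gave medians of -0.27 to -0.25 and -0.30 to -0.23, and a difference of medians, large minus small, of -0.018 to 0.04. The median of each subunit was -0.22 with scaling on the median, -0.45 with no scaling and -0.71 on spike-in probes, and that of the small subunit was -0.24 after normexp.

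With spike-in scaling the log2 change turned to -0.10 for MRPL51, -0.26 for MRPL25, -0.27 for MRPL6, -0.07 for MRPS12, -0.14 for MRPS16 and -0.30 for MRPS18. It was -0.45 for MRPL19, -0.03 for MRP49, -0.07 for AIM23, -0.05 for TUF1 and -0.05 for COX2. With no scaling it was -0.01 for MRPL6 and -0.04 for MRPS18. These scalings shift all genes of an array alike. With the replicate number as a block, 3 rises were called in each subunit and 20 and 13 falls, and no call of a named member changed. Of all genes, 31.8% rose and 48.4% fell with that block. The same-numbered arrays deviated together at r = 0.203 over probes, and the labels do not say what a number stands for. All members were far above background (processed signals of 773 to 40948). Their calls are limited by the number of arrays and the scaling between them, among other things, and each member was read by a single probe.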

Other observations

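The strong rise of IMG1 lay in a stretch of chromosome where other genes were also higher. RRT12, the next gene downstream and transcribed from the same strand, had log2 signals of -4.11 and -4.04 at 0 min and of -1.93 and -1.91 at 90 min, a rise of 2.16 ± 0.06 (adjusted p = 4.94e-07). ARE1, a gene of sterol ester synthesis that lies beyond BUD23 on the other side, went from -0.05 and 0.03 to 2.05 and 2.20, a rise of 2.14 ± 0.07. BUD23, between IMG1 and ARE1, rose by 0.37 ± 0.06 and PER1, beyond RRT12, by 0.41 ± 0.05. Each of these genes had 1 probe, the groups did not overlap for any of them, and the part of gene position in the rise of IMG1 was not tested.

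The mating type a markers STE2, MFA2 and BAR1 fell by 0.76, 1.48 and 1.26 on the log2 scale, as did the other 3 of that list. Of 4 mating type alpha markers, 2 fell, MF(ALPHA)1 and SAG1, and 0 rose. Both counts stand beside 46.2% fallen and 30.3% risen among all genes, and the share of fallen alpha markers (50%) is near the former.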
